A study of Homo sapiens with 6 samples.

Results

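The contactin-associated proteins are a family of 6 genes, CNTNAP1, CNTNAP2, CNTNAP3, CNTNAP3B, CNTNAP4 and CNTNAP5. They were read here by 7 of the 16098 probe sets that carry a gene symbol, and every probe set whose platform symbol is one of these genes was taken. The family was chosen on the measured values, because several CNTNAP3 and CNTNAP3B probe sets were higher in the arrays labelled miR-196b, so the differences of its members between the groups are a description and carry no test. CNTNAP3 has 2 probe sets and each other gene has 1.

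The colorectal carcinoma line HCT116, an established human line that the labels also spell HTC116, was profiled as total RNA on 6 whole-transcript expression arrays. Cells stably transduced with an empty vector gave 3 arrays, and cells stably transduced to overexpress miR-196b gave the other 3. All cells carry a vector, and the sources used here name neither the vector nor its promoter. The design text speaks of biological replicates but does not tell whether transductions were repeated, so the spread between arrays may be that of cultures of 1 transduced population.

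Contactin-associated proteins are single-pass membrane proteins of the neurexin superfamily, with a discoidin domain, laminin G domains and EGF-like repeats outside the cell. CNTNAP1 (Caspr) pairs with contactin 1 at the paranodal junction between axon and myelinating glia, and CNTNAP2 (Caspr2) pairs with contactin 2 and gathers Shaker-type potassium channels at the neighbouring juxtaparanode. The family is known from neurons and glia, and HCT116 is an epithelial line. CNTNAP3B is a near-identical copy of CNTNAP3, and both lie in duplicated sequence of chromosome 9.

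Mature miR-196b-5p, the microRNA the labels name, and miR-196a-5p of the same family have the same seed, shown in capitals (bases 2 to 8, counted from the 5′ end). They differ by the single substitution C12A (miR-196b-5p first). They are shown because the named probe set with the largest difference between the groups is that of MIR196A2.
hsa-miR-196b-5p: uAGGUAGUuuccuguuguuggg
hsa-miR-196a-5p: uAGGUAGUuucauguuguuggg

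The windows around the annotated starts of CNTNAP3 and CNTNAP3B share a short stretch of sequence. RefSeq (GRCh38.p14) places the window from 250 bases before to 50 bases after the start of CNTNAP3 at chr9:39288118-39288417 and that of CNTNAP3B at chr9:42129377-42129676, both on the minus strand. The first 62 bases of the CNTNAP3 window and the last 62 bases of the CNTNAP3B window, in capitals, agree at 61 positions and differ by C24G (CNTNAP3 first, counted from the 5′ end of the capitals).
CNTNAP3: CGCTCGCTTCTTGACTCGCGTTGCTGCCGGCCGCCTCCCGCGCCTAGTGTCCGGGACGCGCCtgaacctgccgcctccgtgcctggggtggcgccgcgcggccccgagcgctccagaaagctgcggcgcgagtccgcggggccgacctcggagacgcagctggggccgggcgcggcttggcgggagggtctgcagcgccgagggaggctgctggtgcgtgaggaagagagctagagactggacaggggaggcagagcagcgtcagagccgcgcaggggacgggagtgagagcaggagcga
CNTNAP3B: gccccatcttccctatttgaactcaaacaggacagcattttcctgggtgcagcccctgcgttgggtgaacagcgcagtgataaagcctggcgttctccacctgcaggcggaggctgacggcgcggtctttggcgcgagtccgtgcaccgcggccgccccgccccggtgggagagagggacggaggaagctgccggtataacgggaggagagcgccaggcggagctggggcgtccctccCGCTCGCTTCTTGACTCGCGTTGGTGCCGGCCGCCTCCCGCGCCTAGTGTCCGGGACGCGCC
The shared stretch lies at the upstream end of the CNTNAP3 window and across the annotated start in the CNTNAP3B window, and the rest of each window did not align with the other window. With the stretch at opposite ends, any counterpart of the remaining bases would lie outside the other window. The lengths given here depend on where the annotated starts lie, so they do not measure how alike the genes are. Among the other 14 pairs of family windows, the longest local alignment was 22 bases. CNTNAP3C, a further relative on chromosome 9, has 2 windows, which share 114 and 163 bases with the CNTNAP3B window without a difference. Their longest alignments with the CNTNAP3 window were 6 and 12 bases. RefSeq lists 10 such relatives, CNTNAP3C and 9 pseudogenes named CNTNAP3P, all on chromosome 9, and 0 of them had a named probe set here.

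Both windows are rich in CpG dinucleotides. CNTNAP3 holds 39 and CNTNAP3B 32, against a median of 14 over 35116 RefSeq windows of the same length, and 8.71% and 18.9% of those windows hold at least as many. The letters GGGCGG, the GC box searched on both strands, occur 3 times in the CNTNAP5 window, 2 times in that of CNTNAP3B, 1 time each in those of CNTNAP1 and CNTNAP2, and 0 times in those of CNTNAP3 and CNTNAP4, and 45% of all windows hold them. The letters TATAAA occur in 0 of the 6 family windows and in 11.5% of all windows. The letters CACCTG, an E-box of ZEB factors, occur 1 time in the CNTNAP3B window and in no other family window, against 20.6% of all windows. These matches describe letters and show no binding.

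The arrays were alike in overall level, with medians of 4.34 to 4.37 on the log2 scale, and their correlation over all probe sets, a description over features of the same arrays, was 0.989 to 0.992 for arrays of 1 group and 0.988 to 0.990 for arrays of different groups. The MIR196B probe set was at 8.09, 7.91 and 7.91 in control and at 8.21, 7.93 and 8.01 in the labelled arrays (log2), and the groups overlapped (log2 difference 0.08, 95% interval -0.16 to 0.31, limma adjusted p = 0.819). The MIR196A2 probe set was at 3.09, 3.21 and 2.88 in control and at 10.6, 10.5 and 10.8 in the labelled arrays, 7.55 apart on the log2 scale (SE 0.12, limma adjusted p = 4.53e-07). The probe set of the gene the labels name thus did not pass the test and that of a relative did, and the array reads precursor transcripts, not mature microRNAs. Every direction below follows the labels. Of the epithelial markers, 7 of 10 were measured, with KRT18 at a mean of 11.2, EPCAM at 11.0 and KRT19 at 10.1 (log2), and 0 passed the test (limma), where 0.0559% of all named probe sets passed. The dimmest was VIL1, at 4.16. At their brightest probe set 5 of the 7 were lower and 2 higher in the labelled arrays, where 52.0% of all named probe sets were higher. KRT18 (log2 difference -0.22, limma adjusted p = 0.405) and CDX2 (-0.26, 0.481) were lower without overlap. They are the 2 at an unadjusted p below 0.05, against 9.87% of all named probe sets. The other probe set of KRT18, at a mean of 7.44, had -0.10 with overlapping groups (limma adjusted p = 0.699).

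The probe sets of CNTNAP3 and CNTNAP3B were higher in the arrays labelled miR-196b, by about the same amount. CNTNAP3 (Caspr3) is one of the less studied members of the family. At its probe set 17094389, the control arrays read 7.00, 6.92 and 6.73 and the labelled arrays 7.51, 7.50 and 7.62 (log2 signal). All 3 labelled arrays lay above all 3 control arrays, and 0.50 separated the lowest labelled array from the highest control array. The group means were 6.88 ± 0.140 and 7.54 ± 0.0633 (SD, n = 3 each), a log2 difference of 0.66 with an SE of 0.09, or 1.58-fold.

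At probe set 17094120, paired with the same CNTNAP3 transcript record in the platform annotation, the control arrays read 6.38, 6.23 and 6.58 and the labelled arrays 7.05, 6.94 and 6.87. The groups did not overlap here either, with a gap of 0.29. The means were 6.40 ± 0.175 and 6.96 ± 0.0881 (SD, n = 3 each), a log2 difference of 0.56 with an SE of 0.11, or 1.47-fold. The spread was wider in control than in the labelled arrays at both CNTNAP3 probe sets.

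CNTNAP3B, the copy, read 6.77, 6.89 and 7.08 in control and 7.52, 7.31 and 7.63 in the labelled arrays. Every labelled array again lay above every control array, with a gap of 0.22. The means were 6.92 ± 0.157 and 7.49 ± 0.164 (SD, n = 3 each), a log2 difference of 0.57 with an SE of 0.12, or 1.48-fold. The largest and the smallest of these 3 differences, 0.66 and 0.56, lie within about 1 SE of each other. Probes were not aligned here and the genes are near-identical, so the 3 probe sets may read shared transcripts, and the signal cannot be assigned to CNTNAP3, CNTNAP3B or their relatives. In RNA of a culture, more cells with the transcript and more transcript per cell cannot be told apart.

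**Figure D1:**
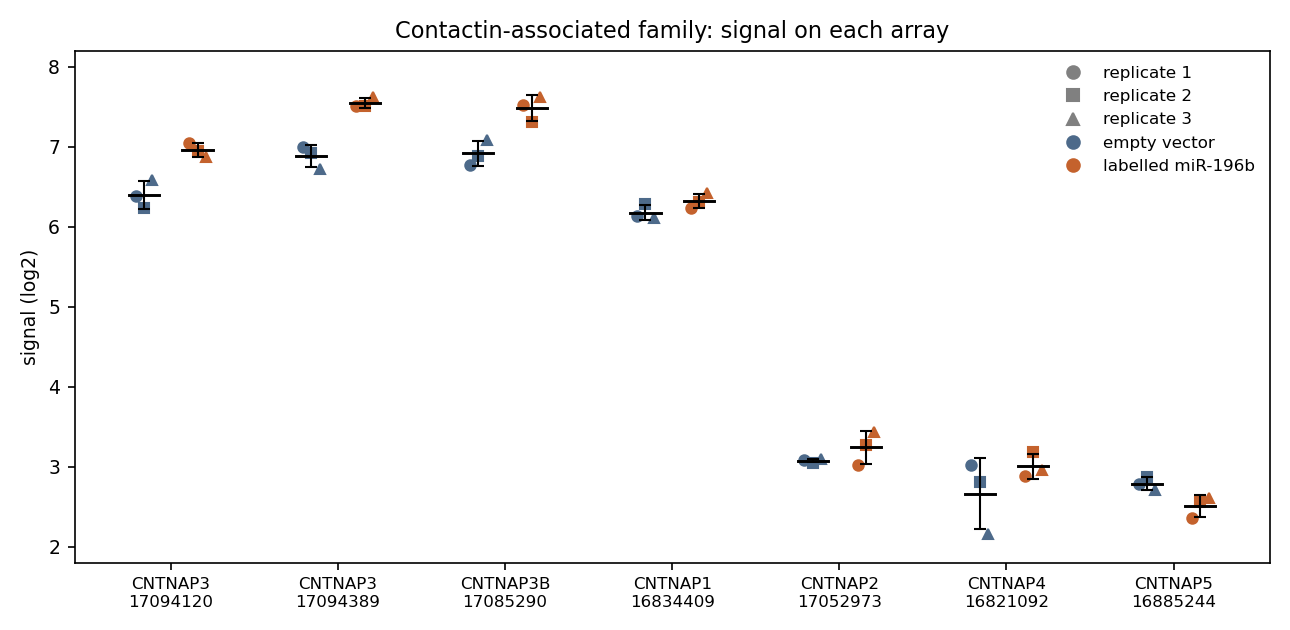
Signal (log2) of the 7 family probe sets on each of the 6 arrays, with blue for empty vector, orange for labelled miR-196b, symbols for the labelled replicate, and black lines for the mean and SD of 3 arrays. The groups are apart at CNTNAP3, CNTNAP3B and, the other way, CNTNAP5, and overlap at CNTNAP1, CNTNAP2 and CNTNAP4, and the heights of different probe sets cannot be compared.

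Over the family, 3 of 7 probe sets had all labelled arrays above all control arrays, and over all named probe sets 10.0% did. In the other direction it was 1 of 7, CNTNAP5, against 7.18%. A log2 difference of 0.5 or more was found at the 3 probe sets of CNTNAP3 and CNTNAP3B and at 0.516% of all named probe sets. Since the members were chosen from this comparison, nothing is read from these counts. The median difference was 0.57 over the 3 CNTNAP3 and CNTNAP3B probe sets, 0.16 over the other 4 and 0.01 over all named probe sets.

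**Figure D2:**
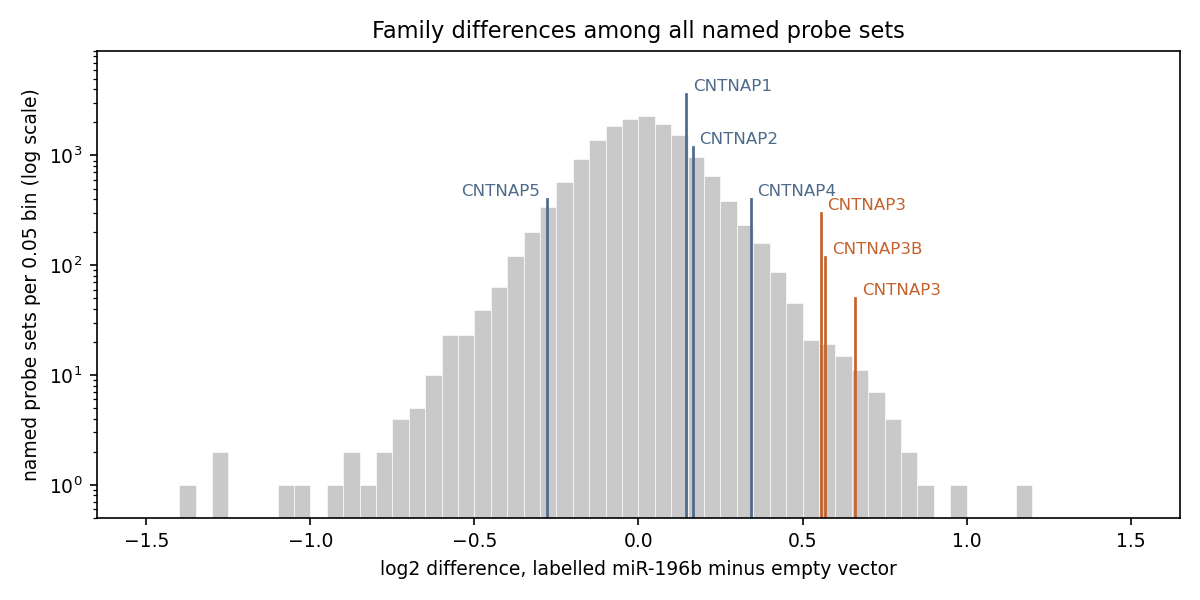
Number of named probe sets (log scale) by log2 difference between labelled miR-196b and empty-vector arrays, in bins of 0.05 from -1.5 to 1.5, with the family marked in orange (CNTNAP3, CNTNAP3B) and blue (other members). CNTNAP3 and CNTNAP3B stand at 0.56 to 0.66, in the right tail, and the other members lie between -0.28 and 0.34, where bars are taller; the heights of the coloured lines have no meaning.

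With any single array left out, the log2 difference ranged from 0.58 to 0.72 at CNTNAP3 probe set 17094389, from 0.47 to 0.65 at 17094120 and from 0.50 to 0.66 at CNTNAP3B. These differences are those the genes were chosen for, so the ranges describe how evenly the arrays contribute.

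CNTNAP1, the paranodal member, was the only other gene of the family in the brighter part of the array. Its probe set read 6.14, 6.28 and 6.11 in control and 6.24, 6.31 and 6.42 in the labelled arrays. The groups overlapped, since 1 control array lay above the lowest labelled array. The means were 6.18 ± 0.0951 and 6.32 ± 0.0895 (SD, n = 3 each), a log2 difference of 0.15 with an SE of 0.09. As a description, 17.0% of named probe sets had a difference at least as high, against 0.168% for CNTNAP3 probe set 17094389, 0.304% for CNTNAP3B and 0.367% for 17094120.

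The probe sets of CNTNAP2, CNTNAP4 and CNTNAP5 were dim. By mean signal they stood at the percentiles 14.4, 10.3 and 8.29 among named probe sets, and CNTNAP1 stood at 58.5, CNTNAP3 at 64.4 (17094120) and 71.4 (17094389), and CNTNAP3B at 71.1. The percentile orders probe sets by brightness and is no ranking of transcripts, because probes differ in their response. The 3 dim probe sets were among the dimmest 40%, and the other 4 were not. No measure of background was used here, so whether these 3 genes are transcribed in the cells was not determined.

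CNTNAP2, the juxtaparanodal member, read 3.09, 3.05 and 3.09 in control and 3.03, 3.27 and 3.43 in the labelled arrays. The groups overlapped, and the spread was larger in the labelled arrays. The log2 difference was 0.16 with an SE of 0.11, and 0.07 without labelled replicate 3 or 0.27 without labelled replicate 1. CNTNAP4, a member known from synapses of inhibitory neurons, read 3.02, 2.81 and 2.16 in control and 2.88, 3.18 and 2.95 in the labelled arrays. Its difference of 0.34 (SE 0.21) rested on control replicate 3, the lowest array, without which it was 0.09. It was 0.52 without control replicate 1.

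CNTNAP5, a further neural member, went the other way. It read 2.78, 2.88 and 2.71 in control and 2.36, 2.56 and 2.61 in the labelled arrays. All labelled arrays lay below all control arrays, by a gap of 0.10. The log2 difference was -0.28 with an SE of 0.09, at the dimmest of the 7 probe sets.

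The variation within each group was not used to choose the family. The median within-group SD of the 7 probe sets was 0.138, against 0.128 over all named probe sets (log2). After each group's mean was taken away, the 2 CNTNAP3 probe sets moved against each other over the 6 arrays (Pearson r = -0.744). CNTNAP3B had r = 0.356 with 17094120 and -0.395 with 17094389. On control replicate 3, CNTNAP3 17094120 stood 0.18 and CNTNAP3B 0.17 above their group mean, and CNTNAP3 17094389 0.15 below. So the 3 probe sets shared the difference between groups and did not all share the deviations within groups. These correlations are descriptions over 6 arrays with group means removed, and the arrays share their RNA across probe sets.

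**Figure D3:**
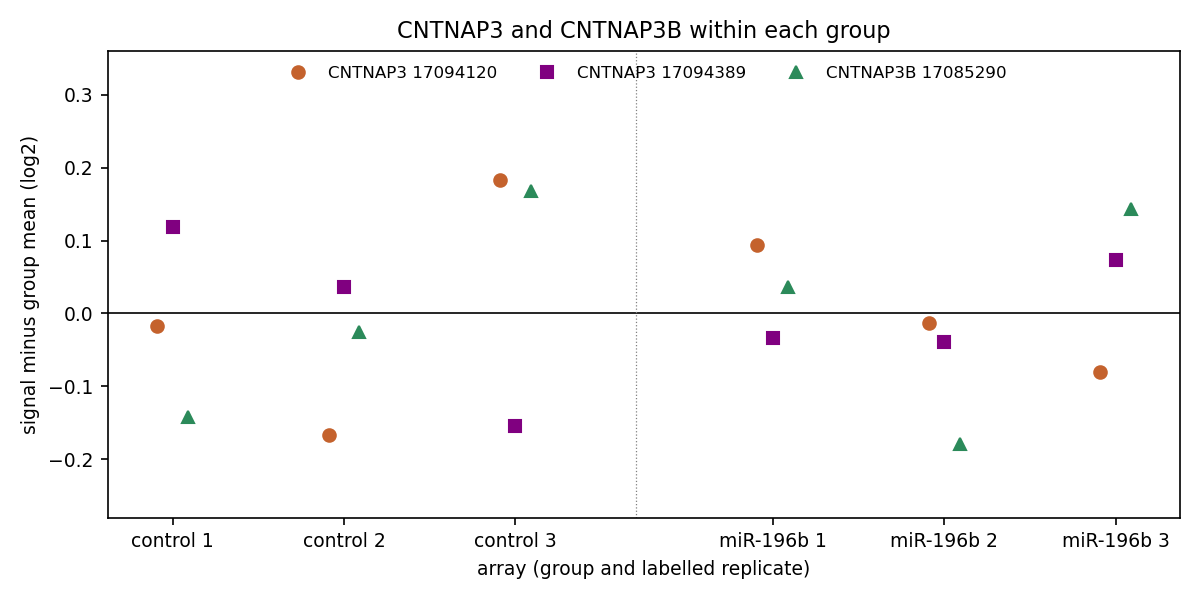
Signal minus the mean of its group (log2) on each array for the 2 CNTNAP3 probe sets and CNTNAP3B. On control 3 the orange circle and green triangle lie at 0.18 and 0.17 and the purple square at -0.15, and no array has all 3 probe sets far to the same side.

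The probe set closest in pattern to CNTNAP3 17094389 outside the family, by the root mean square difference of row-centred log2 values over the 6 arrays, was that of LOC100507351 (0.0483). The next were IQGAP2, a scaffold of the actin cytoskeleton (0.0509), MAPK8IP1, a scaffold of JNK signalling (0.0601), FAT4, an atypical cadherin that also carries laminin G domains (0.0861), and MIR544A (0.0912). Their log2 differences were 0.64, 0.56, 0.72, 0.69 and 0.65 in that order, and none passed the test (limma adjusted p = 0.186, 0.201, 0.251, 0.144 and 0.160). The likeness was taken over all 6 arrays, the difference between groups included. Differences near that of CNTNAP3 17094389 therefore follow from the choice, and nothing is read from them or from their p-values. Of the family's own probe sets, CNTNAP3B at 0.191 and CNTNAP3 17094120 at 0.196 were the closest, at ranks 136 and 152 among all named probe sets. CNTNAP4, CNTNAP1 and CNTNAP2 followed at 0.261, 0.271 and 0.278 (ranks 1122, 1406 and 1705), and CNTNAP5 stood at 0.479 (rank 14812). All 5 nearest probe sets outside the family were among the dimmest 40% of named probe sets. MIR544A and LOC100507351 were the dimmest, with means of 2.21 and 2.90 (log2). MAPK8IP1, IQGAP2 and FAT4 stood at the percentiles 27.7, 29.5 and 37.5 by mean signal.

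Genes that work with the family in neurons and glia were taken from 5 lists of 67 genes in all, of which 39 had a named probe set, 41 probe sets together. At the brightest probe set of each gene, 24 were higher and 15 lower in the labelled arrays, with a median log2 difference of 0.01. Of all named probe sets, 52.0% were higher. None of the 41 passed (limma, adjusted p below 0.05; lowest adjusted p = 0.338), where 0.0559% of all named probe sets passed. At an unadjusted p below 0.05, 8 of 39 genes passed at their brightest probe set, 5 higher and 3 lower, and 9 of the 41 probe sets did, against 9.87% of all named probe sets. The same shares of all named probe sets, 52.0% higher, 0.0559% passed and 9.87% at an unadjusted p below 0.05, belong beside the counts of each list below.

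Contactins, the partners that the family binds on the same membrane, were all 6 measured, and all were dim, with mean signals of 2.50 to 4.40. Their median difference was -0.05, with 2 higher and 4 lower, and 0 passed (limma; 1 at an unadjusted p below 0.05). CNTN4 read 3.09, 3.21 and 3.20 in control and 2.86, 2.89 and 3.08 in the labelled arrays, without overlap, a log2 difference of -0.22 (SE 0.09, limma adjusted p = 0.485). CNTN6 had 0.18 (limma adjusted p = 0.669) and CNTN3 0.15 (0.688). CNTN1, the partner of CNTNAP1, had -0.04 with a 95% interval of -0.52 to 0.44.

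Of the paranode and node proteins, 9 of 18 were measured, 7 higher and 2 lower, with a median of 0.01, and 0 passed (limma; 2 at an unadjusted p below 0.05). GLDN, gliomedin, which gathers sodium channels at nodes of peripheral nerve, read 5.39, 5.31 and 5.36 in control and 5.61, 5.73 and 5.87 in the labelled arrays. The groups did not overlap, and the log2 difference was 0.38 (SE 0.09, limma adjusted p = 0.338). EPB41L5, a protein 4.1 relative of epithelial junctions, had 0.37 (limma adjusted p = 0.438), also without overlap. Its other probe set, nearly as bright, had 0.19 with overlapping groups (limma adjusted p = 0.626). NRCAM, a cell adhesion molecule of the node, had -0.36 (0.545) with overlapping groups. EPB41L3, the protein 4.1 that binds the tail of CNTNAP1 and CNTNAP2, had 0.11 with an SE of 0.22.

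The juxtaparanode list was thinly covered, with 4 of 18 genes measured, and none of its potassium channels or LGI proteins among them. ADAM22, a receptor of LGI proteins, had 0.18 (limma adjusted p = 0.510), ADAM11 -0.15 (0.631) and ADAM23 -0.05 (0.896). CASK, a scaffold that also binds neurexins, had 0.03 at its brighter probe set (limma adjusted p = 0.907). Its other probe set, dim with a mean of 2.23, had -0.30 without overlap (SE 0.08, limma adjusted p = 0.359). None of the 5 probe sets passed, and 1, the dim one of CASK, was at an unadjusted p below 0.05 (limma). Of neurexins and their ligands, 16 of 21 were measured, 9 higher and 7 lower, with a median of 0.01, and 0 passed (limma; 4 at an unadjusted p below 0.05). CLSTN3, a calsyntenin, had 0.20 (limma adjusted p = 0.467), LRRTM3, a postsynaptic neurexin ligand, -0.27 (0.485), and the neuroligin NLGN3 -0.27 (0.487). NRXN3 had 0.30 (0.490).

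FOXP2, a forkhead factor reported to repress CNTNAP2, read 4.42, 4.94 and 4.70 in control and 5.16, 4.98 and 5.33 in the labelled arrays. The labelled arrays lay above the control arrays, with a log2 difference of 0.47 and an SE of 0.15 that did not pass (limma adjusted p = 0.415). CNTNAP2 itself had 0.16, at a dim probe set. FOXP1 had 0.16 (limma adjusted p = 0.669) and FOXP3 0.11 (0.765). All 4 FOXP genes were higher, with a median log2 difference of 0.13, where 52.0% of all named probe sets were higher. Of the 4, 0 passed (limma), and 1 was at an unadjusted p below 0.05.

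**Figure D4:**
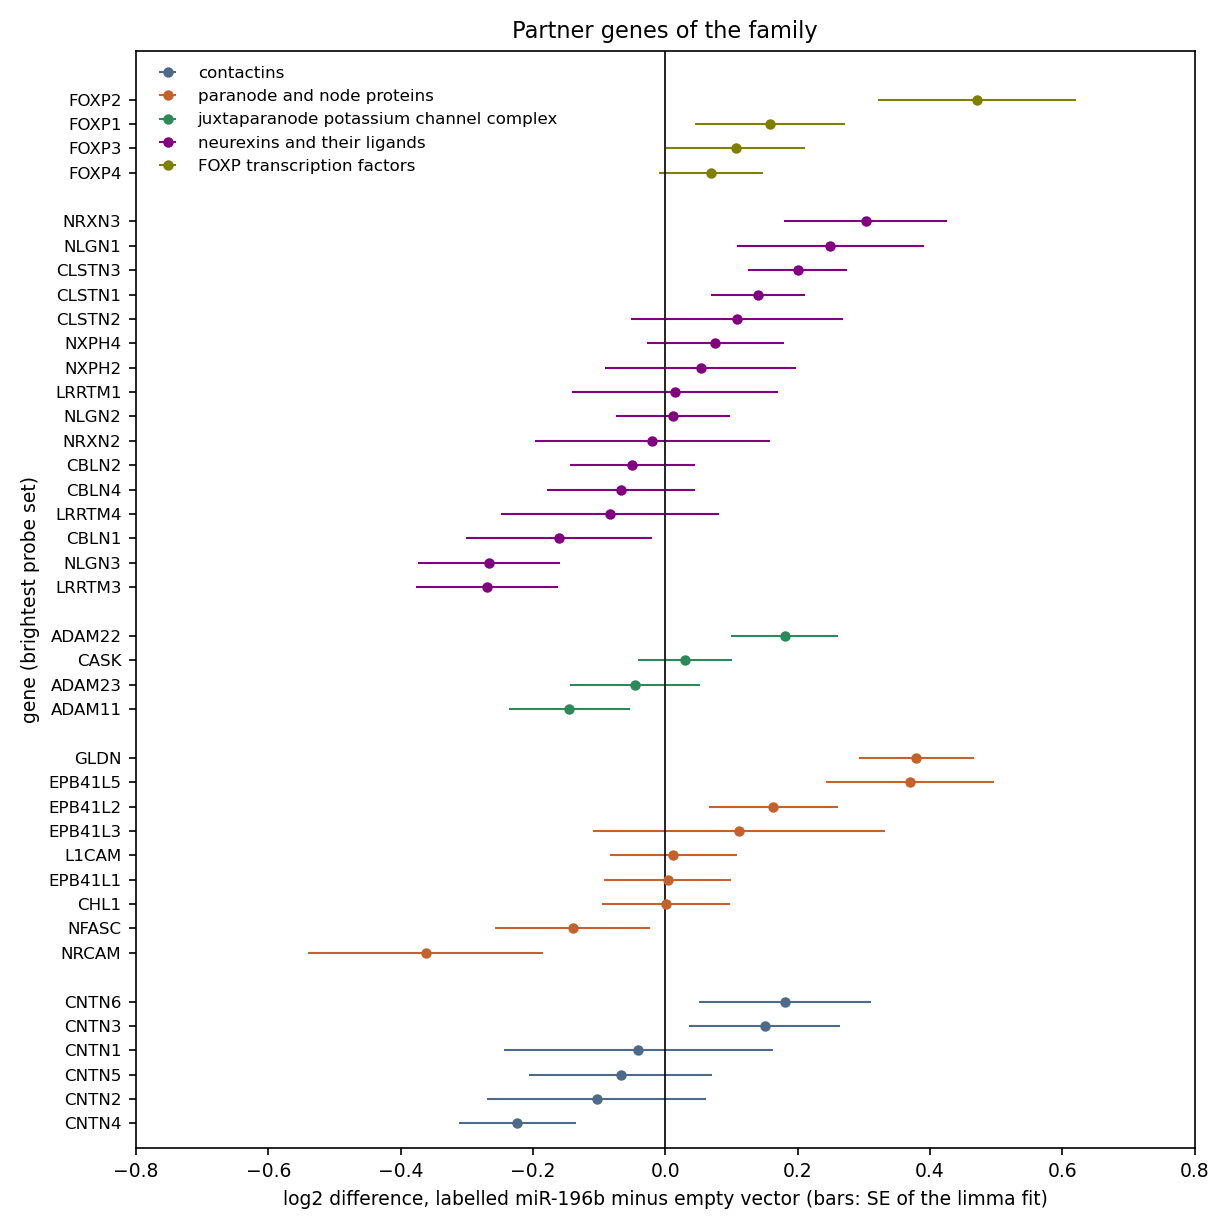
Log2 difference between labelled miR-196b and empty-vector arrays for 39 partner genes in 5 lists, each at its brightest probe set, with bars for the SE of the limma fit. Values lie between -0.36 (NRCAM) and 0.47 (FOXP2) on both sides of 0, and none passed the test.

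Markers of the cells that the family is known from were checked too. Of 12 neuron markers 5 were measured and of 12 glia and myelin markers 8, and 0 passed (limma, against 0.0559% of all named probe sets). At an unadjusted p below 0.05 there were 0 of the neuron and 1 of the glia markers, MAG, against 9.87% of all named probe sets. The summed log2 signal of the neuron markers was 24.0 to 25.0 in control and 24.3 to 25.0 in the labelled arrays, and that of the glia markers 34.6 to 35.6 and 35.1 to 35.5. Most were dim, with SYT1, at a mean of 8.18, the brightest, and MBP at 5.98. MAG had a log2 difference of 0.25 (limma adjusted p = 0.383) and SOX10 -0.19 (0.507), each without overlap. At their brightest probe sets, 3 neuron markers were higher and 2 lower, and 4 glia markers were higher and 4 lower. Of all named probe sets, 52.0% were higher. The part of other cell types in the CNTNAP3 difference was not tested.

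The measured genes next to CNTNAP3 and CNTNAP3B were read at the same arrays. Taking the 10 nearest with a named probe set on each side of each gene gave 26 genes with 32 probe sets, 17 higher and 9 lower at their brightest probe set, with a median log2 difference of 0.05. Of all named probe sets, 52.0% were higher. None of the 32 passed (limma, lowest adjusted p = 0.251), where 0.0559% of all named probe sets passed. At an unadjusted p below 0.05 there were 6 of 32, against 9.87% of all named probe sets. Lower among these were PGM5 and FOXD4L5. Higher were AQP7P3, FLJ43315 (0.41, limma adjusted p = 0.483), AQP7P1 (0.34, 0.482) and FRG1JP (0.21, 0.504). The groups overlapped at FLJ43315 and AQP7P1, and the other, dimmer probe set of FRG1JP had -0.34 (SE 0.30). The nearest on either side of CNTNAP3 were ANKRD18A (0.13, SE 0.18) and FGF7P3 (0.00, SE 0.12), whose other, dimmer probe set had -0.14 (SE 0.23). On either side of CNTNAP3B stood MIR4477A (0.07, SE 0.13) and FGF7P6 (-0.22, SE 0.22). The other probe set of MIR4477A had -0.09 (SE 0.12), and that of FGF7P6 had 0.22 (SE 0.12). Both MIR4477A probe sets were very dim, at the percentiles 0.485 and 0.199 by mean signal, so their small differences tell little.

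AQP7P3, a pseudogene of the aquaporin AQP7 in the same duplicated part of the chromosome, had the largest difference among these neighbours. It read 6.06, 6.20 and 6.28 in control and 6.76, 6.60 and 6.82 in the labelled arrays, without overlap. Its log2 difference was 0.55 with an SE of 0.10 (limma adjusted p = 0.251), and it passed in a fit with a trended, robust variance prior (adjusted p = 0.0345). PGM5 had -0.31 (limma adjusted p = 0.407) and FOXD4L5 -0.29 (0.411). Copies of these genes also exist, so their probe sets may read relatives.

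**Figure D5:**
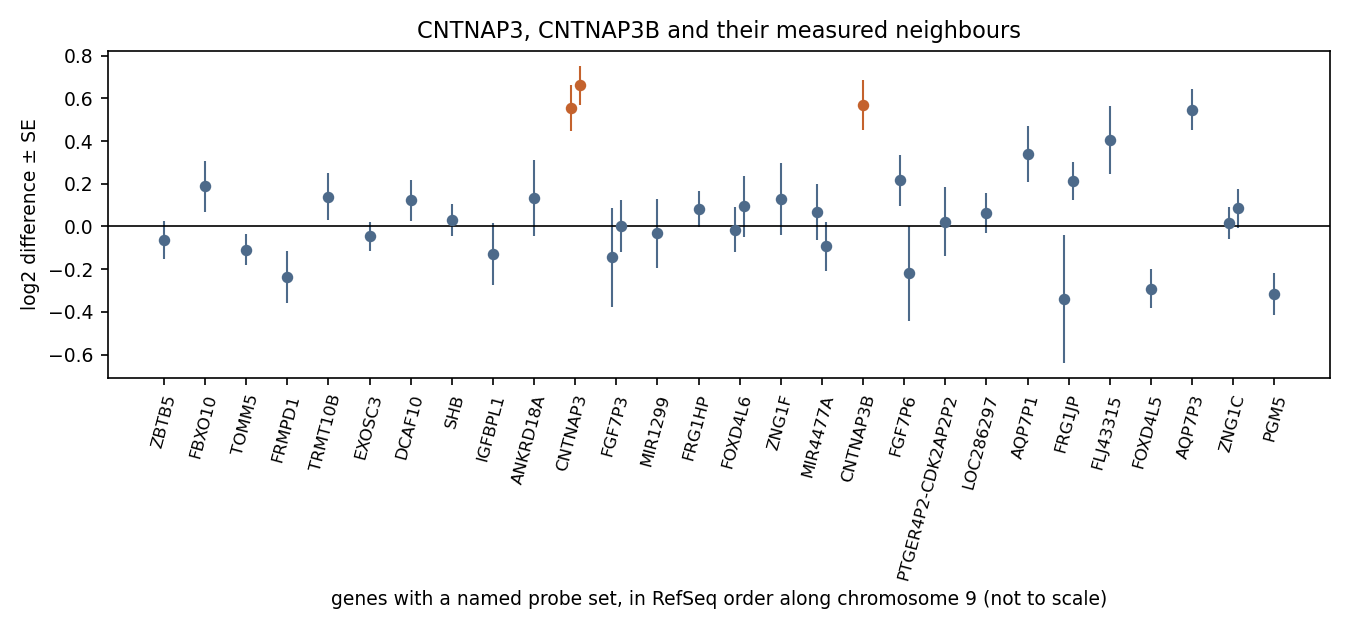
Log2 difference (with SE) of CNTNAP3 and CNTNAP3B (orange) and of the 26 measured neighbours (blue), in RefSeq order along chromosome 9 and not to scale, with every named probe set of a gene shown. The genes directly beside CNTNAP3 and CNTNAP3B lie between -0.22 and 0.22, and AQP7P3, at 0.55, is the neighbour closest to CNTNAP3 in size.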

How the data were processed

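Per the submitters' processing notes, RMA and Partek 6.6 were used, with no order or options. The deposited values are taken as log2 signal, the scale RMA gives, and RMA removes differences in overall level between arrays. The genome build is not given in the sources used here. The platform annotation named 16098 of 53617 probe sets (14884 genes), each with 1 symbol and 0 with several; the other 37519 were unnamed here. All symbols matched the GRCh38.p14 annotation through gene identifiers, used for names and gene order.

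The deposited values were fitted with limma 3.58.1 (R 4.3.3; lmFit, eBayes) on all named probe sets, labelled minus control, with Benjamini-Hochberg adjustment and a threshold of 0.05, after a test on simulated data. The number of arrays limits the precision. An adjusted p weighs a difference only against the spread between these arrays, moderated over all named probe sets. Promoter windows were aligned with Biopython 1.88.

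The members and lists were chosen with earlier results of these data known. Named were all family probe sets, MIR196B, MIR196A2, the 3 list genes and 3 neighbours of smallest p, and the 5 nearest patterns. Other genes of these lists were named after their values were seen, as were the flanking neighbours, FLJ43315, AQP7P1 and FRG1JP. An olfactory receptor reference for background was planned and not run, as too few of those genes were named. Alternatives were scalings, a filter on dim probe sets, all probe sets, another variance prior, a replicate block and each array left out.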

Additional observations from a re-analysis of the deposited data

How the results depend on the processing

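The medians for CNTNAP3 with CNTNAP3B and for the other members, and the 7 single differences, gave 106 values under the alternatives, of which 0 turned sign, and no median moved by as much as the within-group SD. Fitting all probe sets, another variance prior or the replicate block cannot change these differences, and the dim filter leaves each remaining one as it was. Their signs could not turn there. The family was also chosen on these differences, so the count describes the arrays and is no test. With each array left out in turn, the median was 0.548 to 0.659 for CNTNAP3 with CNTNAP3B and 0.0840 to 0.230 for the other members. The latter was lowest without labelled replicate 3 and highest without labelled replicate 1. The family had 6 of 7 probe sets higher in each of these. Of named probe sets, 9 passed in the limma fit reported, 22 without the dimmest 40%, 91 with a trended, robust variance prior, 2 of the named ones when all 53617 probe sets were fitted, and 2 to 3 with any array left out. Of pathway list probe sets 0 passed under every alternative run, and of neighbours 1 passed with the trended, robust prior (AQP7P3) and 0 otherwise. The cause of these shifts was not tested, beyond fewer or more probe sets tested and fewer arrays. Whether the replicate numbers pair the arrays was not settled. Same-numbered arrays of the 2 groups had correlations of deviations of 0.009 to 0.037, and differently numbered ones -0.052 to 0.02. Of the 6 arrays, 4 correlated best with their own number. With the number as a replicate block, 1 named probe set passed. The spread within groups was recomputed under settings chosen after seeing the data, and its median was 0.114 to 0.156 with an array left out. Array signal limits CNTNAP2, CNTNAP4 and CNTNAP5, whose probe sets were dim.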
